A study of Homo sapiens with 9 samples.

Results

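The SR proteins and hnRNPs are the main RNA-binding regulators of splice site choice, and their messenger RNA levels were followed in CA46 cells with and without depletion of MYC. The members were chosen by name: the numbered SRSF genes, every gene named HNRNP with a letter, the pyrimidine and poly(C) binders PTBP1 to PTBP3, PCBP1 and PCBP2, the SR-like TRA2A and TRA2B, and both subunits of U2AF. These were 46 of the 23161 gene symbols in the RNA tables, after 3 pseudogenes had been left out, and 41 of them had a mean of at least 1 FPKM (fragments per kilobase, a level scaled to library depth and to the length of the gene) over the libraries. CA46 is an established human B cell line from a Burkitt lymphoma, in which MYC is driven by an immunoglobulin translocation. Infection with a virus that carried an shRNA against MYC (shMyc) or a non-targeting control shRNA (NTC) lasted 48 h, and for the last 20 h the cells were kept in 10 mM dimethyl succinate (DMS, a cell-permeable ester of succinate) or in PBS. RNA-seq gave 4 libraries, 1 each for shMyc in DMS, shMyc in PBS, NTC in DMS and NTC in PBS, all from this single line. The series asks what succinate does once MYC is depleted, and its 4 H3K4me3 ChIP samples and 1 input were not analysed here.

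SR proteins carry 1 or more RNA recognition motifs and a tail rich in arginine and serine, bind enhancers in exons and help U1 and U2AF find the splice sites beside them. Most hnRNPs coat nascent transcripts through RNA recognition or KH domains, and many of them oppose SR proteins by binding silencers in exons and introns, so that the ratio of both families shapes which exons are kept. Several of these genes hold poison exons, whose inclusion sends the transcript to nonsense-mediated decay, and a value per gene does not separate productive from poisoned transcripts. MYC binds E-box letters in DNA with its partner MAX, and splicing factor genes have long been listed among its targets in B cell tumours.

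The promoters of 5 members are shown because the data turn on them: HNRNPAB, U2AF1 and HNRNPD stood lower in the shMyc cells, and SRSF5 and PTBP3 higher. Each line gives RefSeq sequence of GRCh38.p14 from 250 bases before to 50 bases after the gene's start, written 5′ to 3′ on the gene's own strand. Capitals mark the E-box CACGTG and the related letters CACGCG or, on the other strand, CGCGTG.
HNRNPAB (chr5:178204283-178204582, plus strand): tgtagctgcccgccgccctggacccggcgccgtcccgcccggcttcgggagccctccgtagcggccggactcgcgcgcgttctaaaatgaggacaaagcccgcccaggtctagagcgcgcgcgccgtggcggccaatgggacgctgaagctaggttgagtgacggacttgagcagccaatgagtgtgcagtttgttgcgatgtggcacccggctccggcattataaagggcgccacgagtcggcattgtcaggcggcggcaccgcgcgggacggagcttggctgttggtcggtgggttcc
U2AF1 (chr21:43107521-43107820, minus strand): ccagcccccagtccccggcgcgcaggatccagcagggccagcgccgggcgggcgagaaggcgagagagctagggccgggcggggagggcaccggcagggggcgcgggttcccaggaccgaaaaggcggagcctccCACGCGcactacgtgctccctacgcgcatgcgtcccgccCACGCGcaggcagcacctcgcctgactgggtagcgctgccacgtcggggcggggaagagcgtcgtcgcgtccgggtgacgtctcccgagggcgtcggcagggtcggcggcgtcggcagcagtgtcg
HNRNPD (chr4:82373942-82374241, minus strand): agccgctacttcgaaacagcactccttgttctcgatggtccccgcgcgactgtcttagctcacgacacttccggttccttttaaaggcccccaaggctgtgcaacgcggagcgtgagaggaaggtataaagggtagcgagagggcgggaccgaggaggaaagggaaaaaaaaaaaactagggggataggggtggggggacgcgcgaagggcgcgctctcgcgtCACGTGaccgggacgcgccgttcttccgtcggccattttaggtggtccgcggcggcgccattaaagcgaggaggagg
SRSF5 (chr14:69766892-69767191, plus strand): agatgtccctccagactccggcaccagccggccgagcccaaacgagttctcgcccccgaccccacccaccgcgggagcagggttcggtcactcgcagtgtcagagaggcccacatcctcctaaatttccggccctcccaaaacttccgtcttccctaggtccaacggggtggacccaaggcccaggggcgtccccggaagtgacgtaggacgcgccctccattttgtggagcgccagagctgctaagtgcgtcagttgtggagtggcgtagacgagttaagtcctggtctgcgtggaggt
PTBP3 (chr9:112332977-112333276, minus strand): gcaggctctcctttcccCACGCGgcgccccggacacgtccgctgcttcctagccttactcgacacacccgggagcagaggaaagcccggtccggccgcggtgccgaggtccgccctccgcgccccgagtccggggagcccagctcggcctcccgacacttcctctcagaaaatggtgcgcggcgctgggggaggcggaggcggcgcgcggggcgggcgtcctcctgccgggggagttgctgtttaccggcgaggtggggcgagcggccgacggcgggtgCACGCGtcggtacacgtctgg

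U2AF1 held CACGCG at 115 and at 76 bases before the start, HNRNPD held CACGTG at 27 bases before it, and PTBP3 held CACGCG at 233 bases before and 29 bases after it. HNRNPAB, the member with the lowest ratio, and SRSF5 held neither motif in this window. Both strands were searched, CACGTG reads the same on either strand, and a single stretch can hold CACGCG and CGCGTG in overlap. RefSeq promoters were found for 41 of the 46 members, some with several starts, which made 56 promoters. CACGTG was found in 14.3% of these against 9.69% of the 12610 promoters of all genes kept and 7.26% of the 35116 promoters of all genes. CACGCG was found in 30.4% of the members' promoters, against 17.4% of those of genes kept and 11.4% of all promoters. The members' promoters were also richer in CG letter pairs, which both motifs contain, with a median of 29 pairs against 25 for genes kept and 14 for all promoters. Either motif was present in 46.3% of members with an entry, beside 20.3% of all genes, and in 41.1% of their promoters, beside 25.0% of those of genes kept. It was present in 12 of 21 with an entry among members that fell in the limma fit below, and in 6 of 15 among those not called. Among members at least 2-fold lower in PBS it was present in 5 of the 8 with an entry. Among those with the smallest range over the libraries it was present in 2 of the 4. No promoters were read for HNRNPA1, TRA2A, SRSF2, HNRNPCL3 and HNRNPU-AS1.

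The level of MYC checked the labels of the shRNA. MYC stood at 625 FPKM in shMyc cells in DMS and 17.1 FPKM in shMyc cells in PBS, against 1651 FPKM in NTC cells in DMS and 1867 FPKM in NTC cells in PBS. The shMyc libraries thus held 37.9% of the NTC level in DMS and 0.914% in PBS, so each knockdown ratio in DMS rests on a smaller difference in MYC than the one in PBS. Read from the steps between low values, 1 FPKM stood for 29.8 to 33.3 fragments per kilobase, an estimate with no counting interval. All 6 B cell markers were present, with a summed level of 4195 and 6407 FPKM in the shMyc cells in DMS and PBS and 1493 and 2144 FPKM in the NTC cells in DMS and PBS. Of the 4 myeloid markers 3 were above 1 FPKM with CD14 near 0, and their sum was 107 and 174 FPKM in the shMyc cells in DMS and PBS and 12.0 and 25.9 FPKM in the NTC cells in DMS and PBS. The 4 T cell markers summed to between 7.06 and 8.90 FPKM in every library, and the 4 epithelial markers to between 0.808 and 4.79 FPKM with KRT8 and KRT18 listed at 0. A listed 0 can be a failed estimate in these tables, since DDX39B, a helicase that every cell uses, is also listed at 0 in all 4 libraries. The part of these markers in the results was not tested, and in bulk libraries fewer cells of a type and less RNA per cell cannot be told apart.

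In untreated control cells the members spanned a wide range of levels, in rescaled FPKM. HNRNPA1, which binds silencers and opposes SRSF1, led the list at 1334 FPKM in NTC cells in PBS. A joint row that holds the ribosomal protein gene RPL36A with HNRNPH2 and their readthrough followed at 1006 FPKM, and what part of it belongs to HNRNPH2 cannot be told apart. PCBP1, HNRNPD, HNRNPK, HNRNPA2B1, SRSF9 and HNRNPL came next, between 347 and 404 FPKM, and neighbours in this order, such as PCBP1 at 404 FPKM and HNRNPD at 401 FPKM, differed by less than either gene did between libraries. At the low end PTBP2, the neuronal form of the polypyrimidine tract protein, stood at 2.84 FPKM. HNRNPLL, a regulator of CD45 splicing in lymphocytes, and SRSF12 stayed at or under 0.0397 FPKM in every library, and HNRNPCL1, HNRNPCL2 and HNRNPCL3 were listed at 0 throughout.

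**Figure D1:**
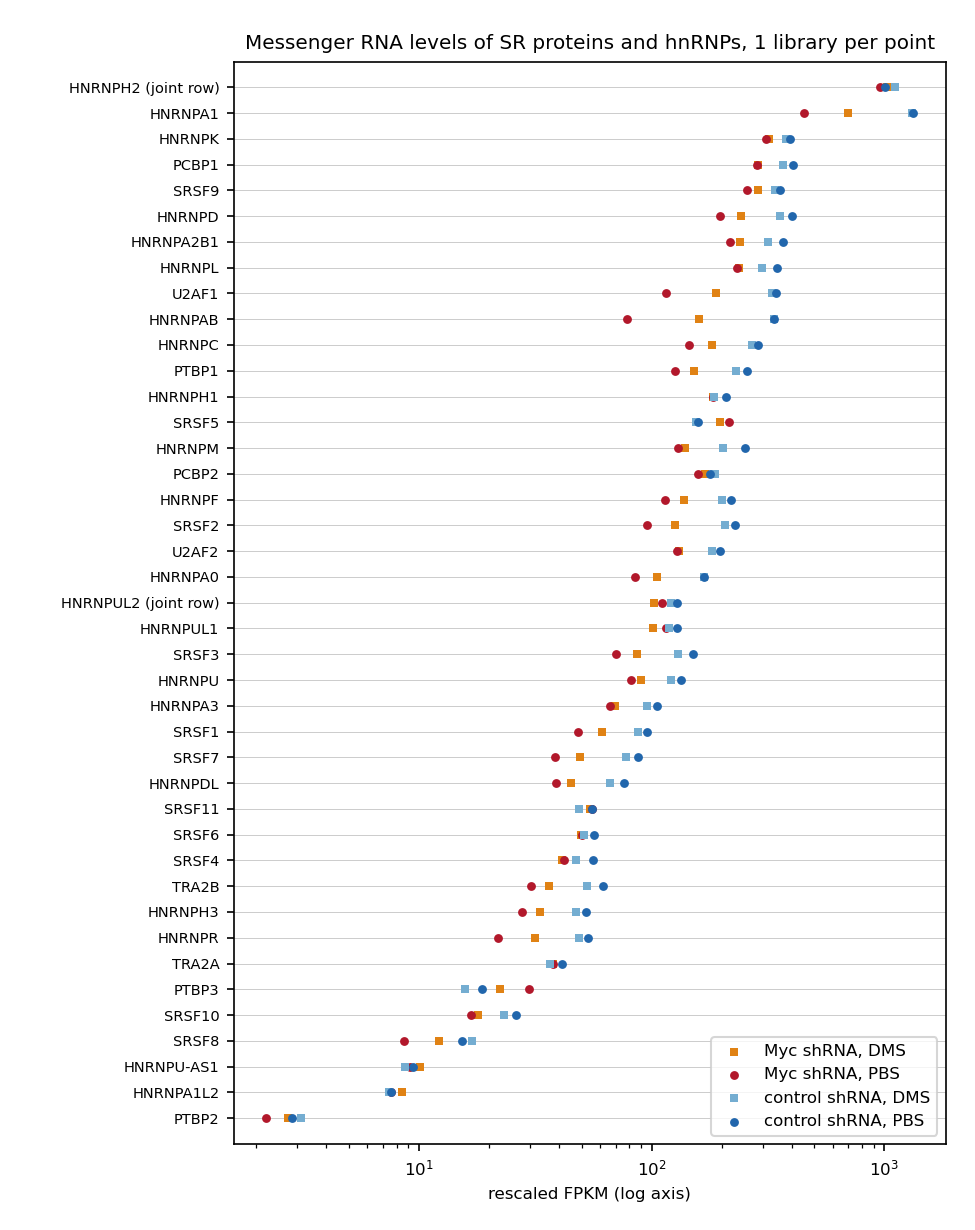
Rescaled FPKM of the 41 members with a mean of at least 1 FPKM, on a log axis, with 1 point for each of the 4 libraries and members ordered by mean level. For most members the shMyc PBS point is the leftmost and the NTC PBS point the rightmost. For SRSF5 and PTBP3 both shMyc points lie to the right of both NTC points, and the points of HNRNPH1, SRSF6, TRA2A and SRSF11 lie close together.

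Depletion of MYC went with lower levels of most SR proteins and hnRNPs. In PBS 37 of the 41 members lay below 0 on the log2 scale, beside 50.2% of all genes. Of the members 10 were at least 2-fold lower in the shMyc library and 0 were 2-fold higher. Of all 11167 genes kept, 16.9% were lower by this rule and 14.4% higher. The members' median log2 ratio was -0.65, beside -0.01 over all genes. Both shMyc libraries lay below both NTC libraries in 34 of the 41 members (82.9%), beside 41.9% of all genes, and above both in 3 members, SRSF5, PTBP3 and HNRNPA1L2, beside 42.2% of all genes. Each comparison of 2 libraries has no replicate check and no test. The count of 10 became 17 with the FPKM as deposited, beside 19.9% of all genes lower, and 23 with a line of 1.5-fold, beside 27.9%.

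The SR proteins did not move as 1 set, and in PBS their log2 ratios ran from -1.24 for SRSF2 to 0.44 for SRSF5. SRSF2, which favours exon inclusion and is mutated in myelodysplasia, stood at 126 FPKM in shMyc cells in DMS and 95.9 FPKM in shMyc cells in PBS, against 207 FPKM in NTC cells in DMS and 228 FPKM in NTC cells in PBS. SRSF7, an adaptor for messenger RNA export, stood at 49.2 FPKM in shMyc cells in DMS and 38.4 FPKM in shMyc cells in PBS, against 77.6 FPKM in NTC cells in DMS and 87.7 FPKM in NTC cells in PBS. SRSF3, its closest relative and the smallest SR protein, stood at 86.9 FPKM in shMyc cells in DMS and 70.4 FPKM in shMyc cells in PBS, against 129.8 FPKM in NTC cells in DMS and 151 FPKM in NTC cells in PBS. In all 3 of these genes both shMyc libraries lay below both NTC libraries, as in 41.9% of all genes, and the shMyc library in PBS was the lowest. Their log2 ratios of shMyc over NTC were -0.71, -0.65 and -0.57 in DMS and -1.24, -1.17 and -1.09 in PBS, in the order named.

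SRSF1, the founding SR protein and a driver of transformation when overexpressed, showed the same order with a smaller range. It stood at 61.1 FPKM in shMyc cells in DMS and 48.5 FPKM in shMyc cells in PBS, against 87.5 FPKM in NTC cells in DMS and 95.0 FPKM in NTC cells in PBS. Its close relative SRSF9 was more abundant and moved less, at 286 FPKM in shMyc cells in DMS and 257 FPKM in shMyc cells in PBS, against 338 FPKM in NTC cells in DMS and 357 FPKM in NTC cells in PBS. SRSF8, a retrogene-derived relative of SRSF2, was scarce, at 12.2 FPKM in shMyc cells in DMS and 8.59 FPKM in shMyc cells in PBS, against 16.8 FPKM in NTC cells in DMS and 15.3 FPKM in NTC cells in PBS. All 3 kept the shMyc libraries below the NTC libraries, as 41.9% of all genes did. SRSF10, which turns into a splicing repressor when dephosphorylated, did so too, with log2 ratios of -0.36 in DMS and -0.61 in PBS. The locus of SRSF9 takes in TRIAP1 (32.2 and 19.9 FPKM in shMyc cells in DMS and PBS, 51.2 and 56.0 FPKM in NTC cells). It also takes in GATC (13.2 and 9.08 FPKM in shMyc cells, 18.4 and 16.3 FPKM in NTC cells, in the same order). The part of both genes in the SRSF9 values was not tested.

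SRSF4, SRSF5 and SRSF6, which form a branch of their own with paired RNA recognition motifs, did not move together. SRSF5, first cloned as an insulin-induced gene of regenerating rat liver, stood at 197 FPKM in shMyc cells in DMS and 215 FPKM in shMyc cells in PBS, against 155 FPKM in NTC cells in DMS and 157 FPKM in NTC cells in PBS. SRSF4 stood at 41.1 FPKM in shMyc cells in DMS and 42.0 FPKM in shMyc cells in PBS, against 47.4 FPKM in NTC cells in DMS and 56.0 FPKM in NTC cells in PBS. SRSF6 stood at 49.5 FPKM in shMyc cells in DMS and 50.2 FPKM in shMyc cells in PBS, against 51.1 FPKM in NTC cells in DMS and 56.7 FPKM in NTC cells in PBS. SRSF5 was thus higher in both shMyc libraries, SRSF4 lower in both, and SRSF6 nearly level across them. SRSF11, an SR-related protein of 3′ splice sites, was level too, at 54.5 FPKM in shMyc cells in DMS and 55.4 FPKM in shMyc cells in PBS, against 48.7 FPKM in NTC cells in DMS and 55.2 FPKM in NTC cells in PBS. Because of SRSF5, the summed FPKM of the SRSF4, SRSF5 and SRSF6 branch was 114% of NTC in both media, whereas that of SRSF3 and SRSF7 was 65.6% of NTC in DMS and 45.6% in PBS.

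Among the hnRNPs the widest differences were in the A/B and D groups. HNRNPAB, which binds single-stranded nucleic acid and is related to AUF1, had the lowest ratio of all members. It stood at 159 FPKM in shMyc cells in DMS and 77.9 FPKM in shMyc cells in PBS, against 334 FPKM in NTC cells in DMS and 337 FPKM in NTC cells in PBS. The shMyc library in PBS thus held 23.1% of the matching NTC level and the one in DMS 47.7%, and HNRNPAB was the only member at least 2-fold lower in both media. Its locus (chromosome 5, 177631507 to 177659823, hg19) takes in the overlapping gene PHYKPL, which stood at 25.3 and 35.5 FPKM in the shMyc cells in DMS and PBS and at 12.5 and 11.9 FPKM in the NTC cells in DMS and PBS. HNRNPD, or AUF1, which binds AU-rich elements and sets the decay of short-lived messages, stood at 242 FPKM in shMyc cells in DMS and 196 FPKM in shMyc cells in PBS, against 357 FPKM in NTC cells in DMS and 401 FPKM in NTC cells in PBS. HNRNPDL, its near relative, followed the same order at log2 ratios of -0.55 in DMS and -0.94 in PBS. The locus of HNRNPDL takes in ENOPH1 (17.6 and 11.4 FPKM in shMyc cells in DMS and PBS, 29.0 and 29.5 FPKM in NTC cells), whose part was not tested.

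The A group followed, led by its most abundant gene. HNRNPA1 stood at 700.02 FPKM in shMyc cells in DMS and 452 FPKM in shMyc cells in PBS, against 1309 FPKM in NTC cells in DMS and 1334 FPKM in NTC cells in PBS. HNRNPA2B1, which also sorts RNA into exosomes, stood at 239.6 FPKM in shMyc cells in DMS and 217 FPKM in shMyc cells in PBS, against 316 FPKM in NTC cells in DMS and 368 FPKM in NTC cells in PBS. HNRNPA0, a single-exon relative that binds AU-rich messages, stood at 105 FPKM in shMyc cells in DMS and 85.1 FPKM in shMyc cells in PBS, against 168 FPKM in NTC cells in DMS and 167 FPKM in NTC cells in PBS. In these 3 genes both shMyc libraries lay below both NTC libraries, as in 41.9% of all genes, and HNRNPA1 had the lowest ratio of them. HNRNPA3 stood at 69.6 FPKM in shMyc cells in DMS and 66.4 FPKM in shMyc cells in PBS, against 95.8 FPKM in NTC cells in DMS and 105 FPKM in NTC cells in PBS. HNRNPA1L2, a near-identical copy of HNRNPA1, had the smallest range of all members, at 8.44 FPKM in shMyc cells in DMS and 7.60 FPKM in shMyc cells in PBS, against 7.46 FPKM in NTC cells in DMS and 7.56 FPKM in NTC cells in PBS. HNRNPA1 has many processed copies in the genome, how reads they share were counted is not given in the sources used here, and the values of both genes are uncertain to that degree. The locus of HNRNPA2B1 takes in CBX3, which stood at 68.8 and 54.0 FPKM in the shMyc cells in DMS and PBS. In the NTC cells CBX3 stood at 90.4 and 113 FPKM in DMS and PBS, and its part in the HNRNPA2B1 values was not tested.

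The F and H group, which binds runs of G, held members that were lower and members that were level. HNRNPF stood at 138 FPKM in shMyc cells in DMS and 114 FPKM in shMyc cells in PBS, against 199.8 FPKM in NTC cells in DMS and 218 FPKM in NTC cells in PBS. HNRNPH3 stood at 33.0 FPKM in shMyc cells in DMS and 27.7 FPKM in shMyc cells in PBS, against 47.1 FPKM in NTC cells in DMS and 52.1 FPKM in NTC cells in PBS. HNRNPH1 stood at 184 FPKM in shMyc cells in both media, against 186 FPKM in NTC cells in DMS and 209 FPKM in NTC cells in PBS. HNRNPF and HNRNPH3 were thus lower in both shMyc libraries, and HNRNPH1 differed by at most 0.19 on the log2 scale between any pair of libraries. The joint row with HNRNPH2 ranged from 962 to 1117 FPKM and overlapped between the viruses.

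The pyrimidine tract binders differed in opposite directions. PTBP1, which represses exons and keeps its own paralogues low through decay of their transcripts, stood at 152 FPKM in shMyc cells in DMS and 127 FPKM in shMyc cells in PBS, against 230.2 FPKM in NTC cells in DMS and 256 FPKM in NTC cells in PBS. PTBP3, a paralogue found in blood cells, stood at 22.3 FPKM in shMyc cells in DMS and 29.7 FPKM in shMyc cells in PBS, against 15.7 FPKM in NTC cells in DMS and 18.7 FPKM in NTC cells in PBS. PTBP2 stood at 2.74 FPKM in shMyc cells in DMS and 2.21 FPKM in shMyc cells in PBS, against 3.11 FPKM in NTC cells in DMS and 2.84 FPKM in NTC cells in PBS. PTBP1 was lower and PTBP3 higher in both shMyc libraries, and PTBP2 was slightly lower in both, at a level near the filter of 1 FPKM. The locus of PTBP3 (chromosome 9, 114758831 to 115112545, hg19) takes in SUSD1, which stood at 12.0 and 18.9 FPKM in the shMyc cells in DMS and PBS and at 3.33 and 4.74 FPKM in the NTC cells in DMS and PBS. Whether reads were assigned by strand is not given in the sources used here, and the part of SUSD1 in the PTBP3 values was not tested. HNRNPL, which binds CA repeats, stood at 237 FPKM in shMyc cells in DMS and 232 FPKM in shMyc cells in PBS, against 297 FPKM in NTC cells in DMS and 347 FPKM in NTC cells in PBS.

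The poly(C) binders were among the steadiest abundant members. HNRNPK, a KH protein that also binds promoters, stood at 319 FPKM in shMyc cells in DMS and 310.3 FPKM in shMyc cells in PBS, against 376 FPKM in NTC cells in DMS and 393 FPKM in NTC cells in PBS. PCBP1 stood at 287 FPKM in shMyc cells in DMS and 284 FPKM in shMyc cells in PBS, against 368 FPKM in NTC cells in DMS and 404 FPKM in NTC cells in PBS. PCBP2 stood at 169 FPKM in shMyc cells in DMS and 159 FPKM in shMyc cells in PBS, against 187 FPKM in NTC cells in DMS and 177 FPKM in NTC cells in PBS. All 3 lay a little below control, with log2 ratios from -0.36 to -0.15 in DMS and from -0.51 to -0.16 in PBS. The locus of PCBP2 takes in MAP3K12 (9.98 and 13.4 FPKM in shMyc cells in DMS and PBS, 4.28 and 4.87 FPKM in NTC cells), whose part was not tested.

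Other hnRNPs lay between these extremes. HNRNPR, a relative of SYNCRIP, stood at 31.4 FPKM in shMyc cells in DMS and 21.9 FPKM in shMyc cells in PBS, against 48.6 FPKM in NTC cells in DMS and 53.3 FPKM in NTC cells in PBS. HNRNPC, which binds U tracts and keeps U2AF2 off cryptic exons, stood at 181 FPKM in shMyc cells in DMS and 145 FPKM in shMyc cells in PBS, against 271 FPKM in NTC cells in DMS and 287 FPKM in NTC cells in PBS. HNRNPM, which binds GU-rich RNA, stood at 139 FPKM in shMyc cells in DMS and 130.1 FPKM in shMyc cells in PBS, against 202 FPKM in NTC cells in DMS and 253 FPKM in NTC cells in PBS. HNRNPR was the lowest of the 3 by ratio, and all 3 had both shMyc libraries below both NTC libraries, as did 41.9% of all genes. HNRNPU, a scaffold attachment factor, had log2 ratios of -0.43 in DMS and -0.70 in PBS, while its relative HNRNPUL1 had -0.23 and -0.16 in the same media. The joint row of BSCL2 and HNRNPUL2 had log2 ratios of -0.24 in DMS and -0.22 in PBS. Its locus takes in GNG3 (20.3 and 52.5 FPKM in shMyc cells in DMS and PBS, 2.41 and 10.6 FPKM in NTC cells), whose part was not tested. HNRNPU-AS1, a separate locus that takes its name from the antisense strand of HNRNPU, stayed between 8.67 and 10.1 FPKM in all libraries.

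The U2AF heterodimer, which marks the 3′ splice site, was lower with unequal subunits. U2AF1, the small subunit that contacts the terminal AG and is mutated in myelodysplasia, stood at 189.7 FPKM in shMyc cells in DMS and 116 FPKM in shMyc cells in PBS, against 327 FPKM in NTC cells in DMS and 343 FPKM in NTC cells in PBS. U2AF2, the large subunit that binds the polypyrimidine tract, stood at 131 FPKM in shMyc cells in DMS and 128 FPKM in shMyc cells in PBS, against 181 FPKM in NTC cells in DMS and 196 FPKM in NTC cells in PBS. The shMyc library in PBS held 33.7% of the matching NTC level of U2AF1 and 65.3% of that of U2AF2. The Transformer-2 homologues, SR-like proteins that bind GAA enhancers, were just as unequal. TRA2B stood at 36.2 FPKM in shMyc cells in DMS and 30.4 FPKM in shMyc cells in PBS, against 52.6 FPKM in NTC cells in DMS and 61.9 FPKM in NTC cells in PBS. TRA2A stood at 37.6 FPKM in shMyc cells in both media, against 36.6 FPKM in NTC cells in DMS and 41.4 FPKM in NTC cells in PBS, so TRA2B was lower in both shMyc libraries and TRA2A was level.

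With DMS the knockdown ratios of most members lay closer to 0. HNRNPAB was the 1 member at least 2-fold lower and 0 were 2-fold higher, and the members' median was -0.43. Over all genes 3.55% were lower by the same rule and 9.64% higher (1076 higher and 396 lower; 910 higher and 674 lower with the FPKM as deposited), with a median of -0.01. The ratio in DMS was nearer 0 than that in PBS in 35 of 41 members, beside 80.7% of all genes, so that this was not particular to the members. It was below 0 in both media in 35 members and above 0 in both in 4. HNRNPA1 had log2 ratios of -0.90 in DMS and -1.56 in PBS, and U2AF1 had -0.78 in DMS and -1.56 in PBS. Across the 41 members the ratios of the 2 media, which share no library, were correlated with Pearson's r of 0.97 and Spearman's rho of 0.98, beside 0.93 and 0.96 across all genes. These describe genes measured in the same 4 libraries, which are not independent replicates. The count of 1 became 2 with the FPKM as deposited, beside 6.04% of all genes lower, and 8 with a line of 1.5-fold, beside 17.1%.

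**Figure D2:**
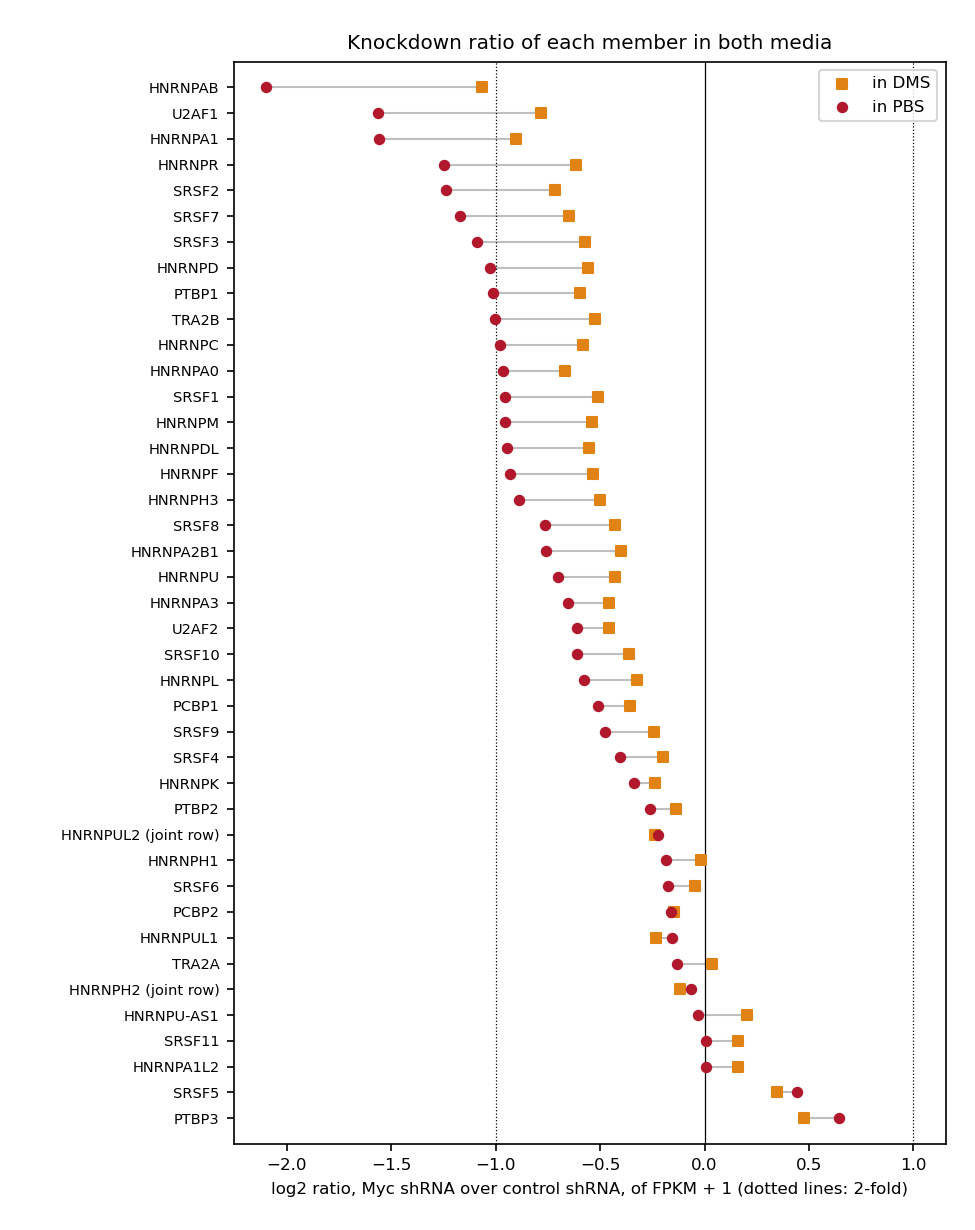
Log2 ratio of shMyc over NTC for the 41 members in DMS (squares) and in PBS (circles), on log2(FPKM + 1), ordered by the ratio in PBS, with dotted lines at a 2-fold difference. HNRNPAB, U2AF1 and HNRNPA1 lie farthest to the left, the squares of 35 members lie nearer 0 than their circles, and SRSF5 and PTBP3 lie to the right of 0 in both media.

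The knockdown was tested over both media by limma, with virus and medium as additive terms and Benjamini-Hochberg adjustment over all 11167 genes. Of the 41 members 23 fell and 1, PTBP3, rose. Of all genes 27.8% fell and 27.9% rose, and 55.7% were called in either direction. The share of members called was thus close to that of all genes, and their calls lay almost all on the lower side, where the members' median log2 fold change was -0.55. Of the 11 SR proteins 6 fell (SRSF1, SRSF2, SRSF3, SRSF7, SRSF8 and SRSF10). Of the 25 hnRNPs, both joint rows among them, 14 fell and 1 rose, and of the 4 U2AF and TRA2 genes 3 fell (U2AF1, U2AF2 and TRA2B). HNRNPU-AS1 belongs to none of these classes and was not called. With the joint rows and HNRNPU-AS1 set aside, 23 of 38 rows fell (60.5%) and 1 rose. On the log2 scale HNRNPAB fell by 1.58 (SE 0.27, adjusted p = 0.00617 by limma), lower in 2 of 2 pairs. HNRNPA1 fell by 1.23 (SE 0.20, adjusted p = 0.0054 by limma) and U2AF1 by 1.17 (SE 0.23, adjusted p = 0.00818 by limma). Among SR proteins SRSF2 fell by 0.98 (SE 0.21, adjusted p = 0.00961 by limma). PTBP3 rose by 0.56 (SE 0.17, adjusted p = 0.0286 by limma), higher in 2 of 2 pairs.

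Of the members not called, SRSF5 had a log2 fold change of 0.40 (SE 0.18, adjusted p = 0.104 by limma), HNRNPL one of -0.45 (adjusted p = 0.0744 by limma) and PCBP1 one of -0.43 (adjusted p = 0.0739 by limma). HNRNPL and PCBP1 passed the threshold with the FPKM as deposited (adjusted p = 0.043 and 0.0401 by limma), and SRSF5 and SRSF9 passed it in a fit without the shMyc library in DMS and without the medium term (0.0147 and 0.0177). HNRNPK (-0.29, adjusted p = 0.192 by limma) and SRSF9 (-0.36, adjusted p = 0.13 by limma) also missed the threshold, as did HNRNPH1, SRSF6, SRSF11, TRA2A and PCBP2. The PTBP3 call was lost with the FPKM as deposited (adjusted p = 0.0628 by limma), without the medium term (0.0745), with no filter on low values (0.0576) and without the shMyc library in PBS (0.109). In a fit without the medium term, leaving out the NTC library in DMS or that in PBS gave 0 calls by limma among the members, and also 0 among all genes, with 7 and 3 members lower at an unadjusted p under 0.05. With no filter on low values 8 members fell, beside 9.10% of all genes. The labels name no separate cultures, and the limma p-values therefore measure no spread between cultures. In this fit the residual is the difference of the DMS response between the viruses, combined with a spread pooled over all genes.

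Over both viruses the medium term of the same fit gave 0 calls by limma with Benjamini-Hochberg adjustment among the 41 members and 0 among all genes (0%), and at an unadjusted p under 0.05 it gave 0 members and 1444 of all genes. In NTC cells DMS went with small differences: 0 members reached 2-fold, beside 0.403% of all genes lower and 0.0806% higher. The members' median log2 ratio was -0.13, beside -0.04 over all genes, and 36 of 41 members lay below 0, beside 58.6% of all genes. HNRNPM had the lowest ratio in NTC cells, at -0.33, and SRSF4, PTBP3 and TRA2B lay at -0.24, -0.24 and -0.23. HNRNPAB, HNRNPA0 and HNRNPA1 lay at -0.01, 0.01 and -0.03, while SRSF3, SRSF7, SRSF2 and HNRNPR lay at -0.22, -0.17, -0.14 and -0.13.

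In shMyc cells the members lay mostly on the other side. HNRNPAB was the 1 member at least 2-fold higher in DMS, at a log2 ratio of 1.02, beside 4.95% of all genes higher and 0.457% lower. The members' median was 0.13, beside 0.00 over all genes, and 34 of 41 lay above 0, beside 5647 of all 11167 genes. U2AF1 had a log2 ratio of DMS over PBS of 0.71, HNRNPA1 0.63, HNRNPR 0.50, SRSF8 0.46 and SRSF2 0.39. PTBP3 had the lowest at -0.40, followed by HNRNPUL1 at -0.18 and SRSF5 at -0.12. In 29 of 41 members the ratio was below 0 in NTC cells and above 0 in shMyc cells, which hold no library in common, beside 23.8% of all genes. The DMS response in shMyc cells minus that in NTC cells was 1.03 for HNRNPAB, 0.78 for U2AF1, 0.65 for HNRNPA1 and 0.63 for HNRNPR, and -0.17 for PTBP3 and -0.10 for SRSF5. This difference was not tested, because a fit to 4 libraries that includes it leaves no residual degree of freedom. MYC stood at 625 FPKM in DMS and 17.1 FPKM in PBS in the same shMyc cells, and its part in these ratios was not tested. The count of 1 became 3 with a line of 1.5-fold, beside 12.9% of all genes higher.

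**Figure D3:**
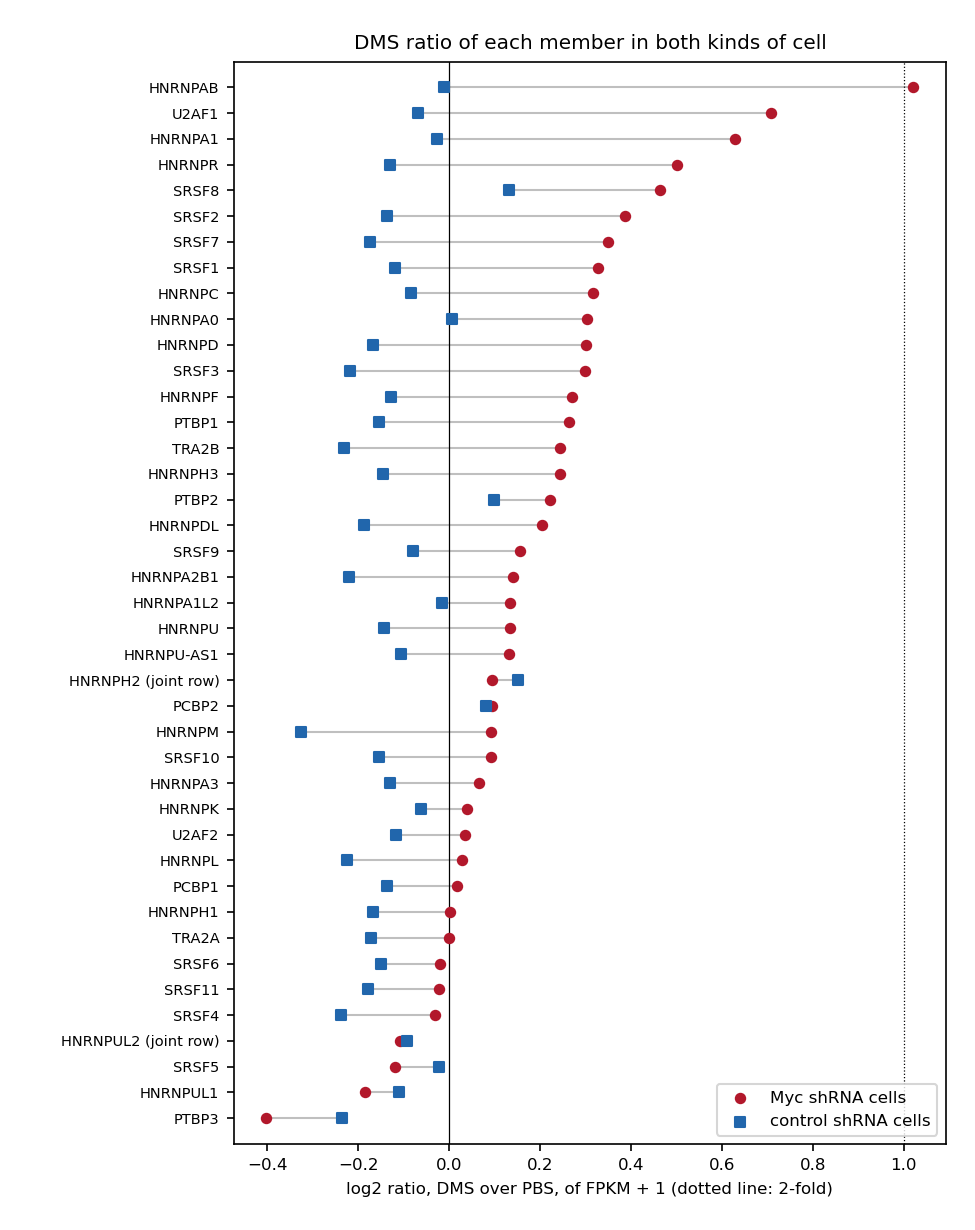
Log2 ratio of DMS over PBS for the 41 members in shMyc cells (circles) and in NTC control cells (squares), on log2(FPKM + 1), ordered by the ratio in shMyc cells. The squares stay within 0.33 of 0, whereas the circles run from -0.40 for PTBP3 to 1.02 for HNRNPAB.

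Because paralogues often act on the same RNA letters, their shares of a common sum were compared, and such shares do not depend on scaling between libraries. PTBP3 made up 12.6% of the summed FPKM of PTBP1, PTBP2 and PTBP3 in shMyc cells in DMS and 18.8% in shMyc cells in PBS, against 6.31% in NTC cells in DMS and 6.72% in NTC cells in PBS. U2AF1 made up 59.1% of the U2AF sum in shMyc cells in DMS and 47.4% in shMyc cells in PBS, against 64.4% in NTC cells in DMS and 63.6% in NTC cells in PBS. TRA2A made up 50.9% of the TRA2 sum in shMyc cells in DMS and 55.3% in shMyc cells in PBS, against 41.0% in NTC cells in DMS and 40.0% in NTC cells in PBS. In each of these sets the shMyc libraries stood on one side of both NTC libraries, and the shMyc library in PBS stood farthest from them. The small U2AF subunit exceeded the large one in 3 libraries and not in the shMyc library in PBS, and TRA2A exceeded TRA2B only in the shMyc libraries. Shares in some other pairs moved little. SRSF3 made up 63.9% and 64.7% of the SRSF3 and SRSF7 sum in shMyc cells in DMS and PBS, against 62.6% and 63.3% in NTC cells. SRSF2 made up 91.1% and 91.8% of the SRSF2 and SRSF8 sum in shMyc cells in DMS and PBS, against 92.5% and 93.7% in NTC cells.

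Some shares of larger sums also differed between the viruses, whereas that of SRSF9 in the SRSF sum stayed between 27.8% and 29.1%. SRSF5 made up 20.1% of the SRSF sum in shMyc cells in DMS and 23.9% in shMyc cells in PBS, against 13.1% in NTC cells in DMS and 12.2% in NTC cells in PBS. HNRNPA1 made up 19.2% of the hnRNP sum in shMyc cells in DMS and 14.6% in shMyc cells in PBS, against 24.6% in NTC cells in DMS and 23.3% in NTC cells in PBS. HNRNPH1 made up 51.8% of the sum of HNRNPF, HNRNPH1 and HNRNPH3 in shMyc cells in DMS and 56.4% in shMyc cells in PBS, against 43.0% in NTC cells in DMS and 43.6% in NTC cells in PBS. The share of SRSF5 and HNRNPH1 was thus larger, and that of HNRNPA1 smaller, in both shMyc libraries. The whole SRSF sum was 982 FPKM in shMyc cells in DMS and 897 FPKM in shMyc cells in PBS, against 1182 FPKM in NTC cells in DMS and 1286 FPKM in NTC cells in PBS. The hnRNP sum, joint rows left out, was 3655 FPKM in shMyc cells in DMS and 3104 FPKM in shMyc cells in PBS, against 5325 FPKM in NTC cells in DMS and 5729 FPKM in NTC cells in PBS. In PBS the shMyc library held 69.8% of the NTC level of the SRSF sum and 54.2% of that of the hnRNP sum, and in DMS 83.0% and 68.6%.

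**Figure D4:**
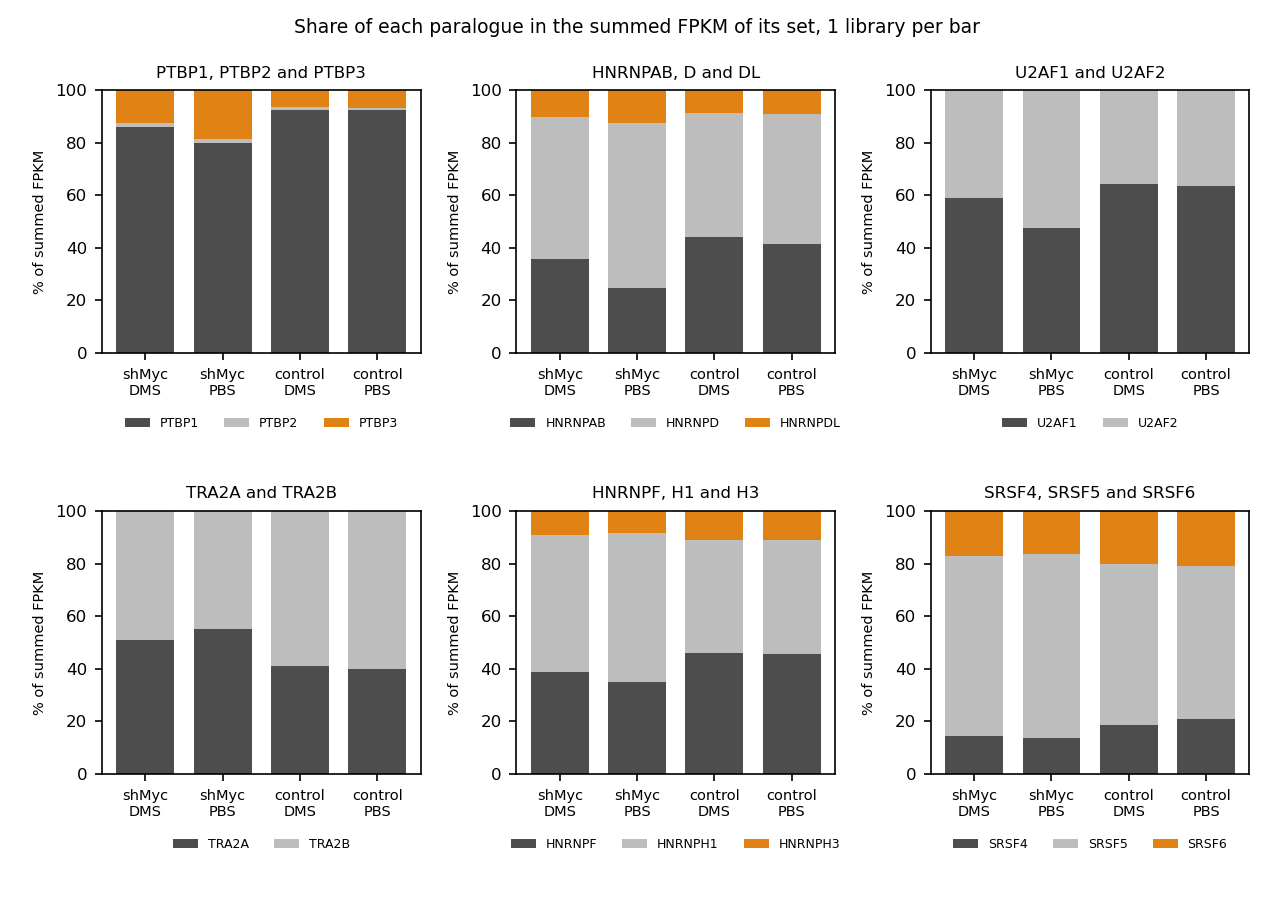
Share of each paralogue, in percent of the summed FPKM of its set, for some of the sets, with 1 bar per library and shMyc bars left of the control bars. PTBP3 reaches 18.8% of its set and TRA2A 55.3% of its pair in shMyc cells in PBS, while U2AF1 makes up 47.4% of its pair there.

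Genes that work with these factors were set beside them. SR proteins are phosphorylated by SRPK kinases in the cytoplasm and by CLK kinases in the nucleus, and enter the nucleus through transportins. Of 17 such kinases, importins and related factors 16 passed the filter, with median log2 ratios of shMyc over NTC of 0.21 in DMS and 0.27 in PBS. By limma 4 (25.0%) fell and 7 (43.8%) rose, beside 27.8% and 27.9% of all genes. SRPK1 stood at 20.0 FPKM in shMyc cells in DMS and 8.86 FPKM in shMyc cells in PBS, against 36.4 FPKM in NTC cells in DMS and 38.1 FPKM in NTC cells in PBS. CLK1 stood at 46.6 FPKM in shMyc cells in DMS and 64.7 FPKM in shMyc cells in PBS, against 15.5 FPKM in NTC cells in DMS and 19.7 FPKM in NTC cells in PBS. SRPK1 was thus lower and CLK1 higher in both shMyc libraries. The kinases did not divide by compartment, since the other cytoplasmic kinase SRPK2 rose with a log2 fold change of 0.60 (SE 0.17, adjusted p = 0.0227 by limma). CLK3, with log2 ratios of 0.35 in DMS and 0.51 in PBS, was not called. A joint row of CLK2 and SCAMP3, with -0.10 in DMS and -0.24 in PBS, was not called either. What part of that row belongs to CLK2 cannot be told apart. TNPO2, an importin, had log2 ratios of -0.67 in DMS and -0.97 in PBS, and CLK4 had 1.18 in both. Of the other importins listed, TNPO1 had -0.58 in DMS and -0.85 in PBS, whereas TNPO3 was level at -0.13 and 0.03.

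Core snRNP proteins, which the SR proteins and hnRNPs direct to splice sites, had lower medians than the members. Of 32 listed 31 passed the filter, with median log2 ratios of -0.65 in DMS and -1.08 in PBS. By limma 23 (74.2%) fell and 1, LSM8, rose, beside 27.8% and 27.9% of all genes. The Sm protein SNRPF had log2 ratios of -1.09 in DMS and -2.25 in PBS, and SNRPD1 had -0.96 and -1.92, while LSM8 (0.42 and 0.65) and PRPF3 (0.06 and 0.11) had the highest. Of 15 partners of U2AF at the 3′ splice site 13 passed the filter, with medians of -0.24 in DMS and -0.48 in PBS. By limma 4 (30.8%) fell and 4 (30.8%) rose, both close to the shares of all genes (27.8% and 27.9%). SF3A3 and SF3B3 of the U2 particle lay at -0.71 and -0.71 in DMS and at -1.24 and -1.23 in PBS. U2AF1L4, a paralogue of U2AF1, lay at 0.80 in DMS and 1.27 in PBS, and ZRSR2, which serves minor introns, at 0.81 in DMS and 0.94 in PBS.

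Of 54 other regulators of alternative splicing 48 passed the filter, 12 (25.0%) fell and 8 (16.7%) rose by limma, beside 27.8% and 27.9% of all genes, and the medians were -0.22 in DMS and -0.32 in PBS. MATR3, a nuclear matrix protein that binds PTBP1, lay at -1.01 in DMS and -2.24 in PBS, and RBFOX2, which binds UGCAUG, at -0.87 and -2.15. RBM5 (1.03 in DMS and 1.25 in PBS) and MBNL2 (0.94 and 1.17) had the highest ratios in PBS. All 14 nonsense-mediated decay factors passed the filter, and by limma 2 (14.3%) fell, beside 27.8% of all genes. These 2 were the exon junction proteins EIF4A3 (-1.03 in DMS and -2.24 in PBS) and MAGOH (-0.59 and -1.03). The median of the 14 was -0.07 in DMS and -0.06 in PBS, with SMG9 (0.03 in DMS and 0.32 in PBS) and UPF2 (0.33 and 0.30) the highest in PBS. The differences between these lists and the members were not tested.

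**Figure D5:**
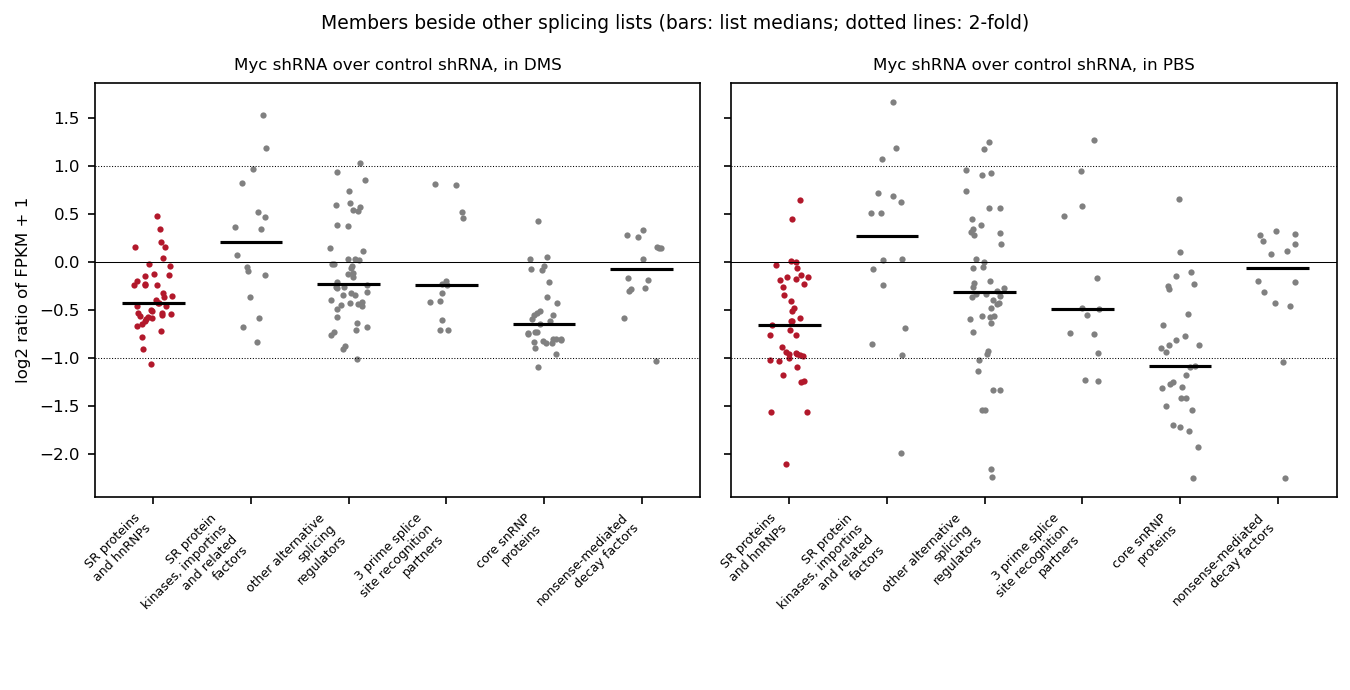
Log2 ratio of shMyc over NTC in DMS (left) and in PBS (right) for the 41 members and the 5 lists of partner genes, on log2(FPKM + 1), with 1 point per gene, bars at list medians and dotted lines at a 2-fold difference. In PBS the medians run from -1.08 for core snRNP proteins through -0.65 for the members to 0.27 for the kinases and importins, and in DMS the points of every list lie in a narrower range.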

How the data were processed

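Per the labels' protocols, RNA was taken up in TRIZOL and NEBNext Ultra RNA kits gave the libraries. Per the submitters' processing notes the tools, listed with no role, included TopHat2 2.1.0, Cuffdiff 2.2.1, Bowtie2 2.2.6 and MACS 1.4.2, and the builds were hg19 and dm6. Neither annotation nor strandedness is given in the sources used here. The authors deposited 1 table of FPKM values per library, with 31016 rows, whose titles name read counts; fractional values and Cuffdiff column names showed the unit to be FPKM. Rows with no gene name (3919 rows; 22.4% and 25.2% of the summed FPKM in the shMyc cells in DMS and PBS, 14.3% and 15.7% in the NTC cells in DMS and PBS) and small RNA genes were left out. From the deposited FPKM, rows of a symbol were summed and a trimmed mean of log2 ratios set the scale between libraries (trimming 30% of ratios and 5% of levels from either end), with factors of 0.962, 0.953, 1.04 and 1.05 for shMyc in DMS, shMyc in PBS, NTC in DMS and NTC in PBS. A minimum mean of 1 FPKM left 11167 genes. Ratios used log2(FPKM + 1), so that changes of low genes are understated, and 2-fold marked a difference between 2 libraries. The limma fit (version 3.58.1 in R 4.3.3, with a trend on the mean level) left 1 residual and 5.22 prior degrees of freedom, and its threshold was an adjusted p of 0.05. It was also run on simulated data with independent noise. Those data held no difference of the DMS response between viruses, so that run cannot show how the fit behaves where there is one. The sequencing depth was not given and was estimated only from the step size of low values. Values in all 4 libraries were given for members past 2-fold in any comparison, for the 8 most abundant, for the 5 with the smallest range and for paralogues set side by side, and the 2 highest and 2 lowest ratios in PBS were named from each partner list. The members, lists and naming rule were chosen with earlier results of these data known. Loci follow the deposited tables (hg19); promoter sequences are RefSeq's, on GRCh38.p14. Alternatives changed the scaling, the pseudocount, the filter, the fold, the terms of the fit and the libraries in it.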

Additional observations from a re-analysis of the deposited data

How the results depend on the processing

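With the FPKM as deposited the median log2 ratio of all genes moved to -0.13 in PBS and -0.10 in DMS for shMyc over NTC; 17 members were then at least 2-fold lower in PBS and 2 in DMS, and 0 rose by limma. With a line of 1.5-fold 23 members were lower and 1, PTBP3, was higher in PBS, 8 were lower in DMS, and 3 were higher with DMS in shMyc cells. With no filter on low values 8 members fell and 0 rose by limma, beside 9.10% and 16.8% of all genes. Without the medium term 0 rose, beside 23.3% of all genes. Fewer calls with no filter came with more genes tested (16553). Leaving out each library in turn, in a fit without the medium term, left 1 library for 1 of the viruses. Without either NTC library every call was lost, among members and all genes alike. Calls remained without either shMyc library, and the cause was not tested. Under the other settings run (a pseudocount of 0.1 FPKM, a mean of at least 5 FPKM, joint rows left out and, chosen after seeing the data, the antisense-named row left out too) the counts stayed within 1.5 times of those given. A mean of at least 5 FPKM lost the calls of HNRNPA3, HNRNPU and U2AF2, a pseudocount of 0.1 FPKM that of SRSF10, the fit without the medium term those of SRSF8 and SRSF10 (adjusted p = 0.0639 and 0.0518 by limma), and leaving out the shMyc library in PBS as well that of SRSF8 (0.0875). Members' medians stayed on the same side of 0 in each setting, from -0.79 to -0.61 for shMyc over NTC in PBS and from -0.53 to -0.40 in DMS. No paired analysis was possible because the groups share only 1 replicate number; the additive fit already sets shMyc against NTC within each medium. With depth only estimated, no counting error could be set beside any value.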
